A study of Mus musculus with 6 samples.

Results

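The change in microRNAs (miRNAs) of the mouse heart ventricle between 6 and 15 months of age was described in animals fed without restriction. Male C57BL/6J mice entered the study at 3, 12 or 19 months and were caged individually while their food intake was first measured. They were then fed ad libitum (AL) or calorie restricted (CR) for 12 weeks, so that tissue was taken at 6 months (Young), 15 months (Adult) or 22 months (Old). Whether single caging lasted through these weeks is not plain from the sources used here. In the CR groups, which enter only as a point of reference, the cut in food deepened in steps of 10%, 25% and 40%, and the deepest step filled most of the feeding period. For each of the 6 groups, ventricle of 6 mice was mixed in equal amounts and 1 µg of its RNA was labelled with the dye Hy3 and hybridised to a single miRCURY LNA array (version 18), whose probes carry locked nucleic acids. The comparison was Adult-AL over Young-AL, and its members were the mouse miRNA features with a signal above 0 on both arrays. They numbered 416 of the 1114 mouse miRNA features, on an array of 3535 features, and 14 of the 416 features named several miRNAs. Neither group carried a genetic change or a drug treatment, and both shared the chow and the AL feeding. Echocardiography at the end of the study was done under pentobarbital. The 19 to 22 month arm and the CR arms were used only to place these values. Because each group was a pool on 1 array, the animals' spread was not measured, no ratio has a replicate check, and no test was made.

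A miRNA is a short RNA that is cut from a hairpin precursor and loaded into an Argonaute protein, where the bases near its 5′ end, the seed, pair with sites in messenger RNAs and lower their output. MiRNAs with the same seed are grouped as families because they can recognise the same sites, and miRNAs from neighbouring hairpins are often transcribed together. In the heart the best known are miR-1 and miR-133, made in all striated muscle, miR-208a and miR-499, carried within myosin heavy chain genes, and miR-21 and miR-29, studied for their part in fibrosis.

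The RefSeq entries used here (mouse build GRCm38.p6) gave a mature sequence for 331 of the 416 miRNAs. The rest were not matched, which does not mean that RefSeq lacks them. The sequences below are those on which the results turn, written 5′ to 3′ with the seed, bases 2 to 8, in capitals. The opening set holds some of the miRNAs of blood cells and miR-21a-5p, and all 6 were called higher in every scaling tried. Other blood cell miRNAs, such as miR-150-5p, miR-155-5p and the feature for miR-486a-5p and miR-486b-5p, were not.
miR-142a-3p: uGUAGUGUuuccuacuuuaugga
miR-142a-5p: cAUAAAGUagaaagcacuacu
miR-223-3p: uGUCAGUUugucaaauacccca
miR-451a: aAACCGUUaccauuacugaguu
miR-144-3p: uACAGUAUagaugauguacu
miR-21a-5p: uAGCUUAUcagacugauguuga

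The next set shows seed families whose members had ratios on the same side, with 3 miR-29 members, 4 of the let-7 family and 3 of the miR-17 family.
miR-29a-3p: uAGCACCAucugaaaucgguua
miR-29b-3p: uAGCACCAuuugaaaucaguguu
miR-29c-3p: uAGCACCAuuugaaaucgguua
let-7c-5p: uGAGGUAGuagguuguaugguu
let-7d-5p: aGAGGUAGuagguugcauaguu
let-7e-5p: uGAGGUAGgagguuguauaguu
let-7f-5p: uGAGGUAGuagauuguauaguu
miR-20a-5p: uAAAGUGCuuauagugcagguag
miR-93-5p: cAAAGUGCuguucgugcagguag
miR-106b-5p: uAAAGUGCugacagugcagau

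The last set holds the myosin-gene miRNAs, miR-22-3p, and miRNAs that were lower at 15 months.
miR-208a-3p: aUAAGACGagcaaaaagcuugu
miR-499-5p: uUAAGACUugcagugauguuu
miR-22-3p: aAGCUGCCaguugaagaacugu
miR-3473a: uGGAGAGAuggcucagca
miR-3473b: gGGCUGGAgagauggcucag
miR-669n: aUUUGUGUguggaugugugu
miR-34b-5p: aGGCAGUGuaauuagcugauugu

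Between close relatives the probes face nearly the same target. The sequences of miR-29a-3p and miR-29c-3p differ at 1 position, those of let-7c-5p and let-7e-5p at 2 positions, those of let-7c-5p and let-7f-5p at 2 positions, and miR-3473a and miR-3473b share an unbroken run of 16 bases. How far a probe also reads a relative was not tested.

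The deposited signal is a normalised intensity with no physical unit, and the ratio is Adult-AL over Young-AL, given as a fold or as its log2. A ratio of 1.5-fold or more either way was called, after the fold that the study's methods state. By that rule 125 miRNAs were higher at 15 months (30% of the 416) and 154 were lower (37%), and the median log2 ratio was -0.27, with quartiles of -0.98 and 0.77. The array also carries probes for viral miRNAs, which mouse ventricle should lack, and their 95th percentile was taken as a floor, at 1.86 on Young-AL and 1.76 on Adult-AL. It rests on 17 and 11 viral features with a value. Above the floor on both arrays were 98 miRNAs, 49 of them higher (50%) and 7 lower (7.14%), with a median of 0.58, and these 98 are called the strong miRNAs. Above it on 1 array were 40 miRNAs, 20 higher and 12 lower. Below it on both were 278, with 56 higher (20.1%), 135 lower (48.6%), a median of -0.53 and an SD across miRNAs of 1.71.

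The strength of the signal and the ratio moved together over these miRNAs. In 6 classes of rising mean signal the median log2 ratio went from -2.03 in the weakest to 0.75 in the strongest, where 43 of 70 miRNAs were higher and 2 lower. Across the 416 miRNAs the log2 ratio and the mean log2 signal correlated at r = 0.46 (Spearman 0.44), as a description over points that share the same 2 arrays. The largest ratios were of faint features, such as miR-296-3p at 0.224 on Young-AL and 0.00156 on Adult-AL, a log2 ratio of -7.16, and miR-10a-5p at 0.00247 and 0.142, a log2 ratio of 5.84. On at least 1 array 50 miRNAs lay under 60 times that array's smallest value, and 46 of them were called.

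The spike-in features, which are meant to read synthetic RNA added to a sample, differed between the arrays too. The sources used here do not say how much was added to which amount of RNA, so a value relative to the spike-ins is another scaling and not a calibrated one. All 45 with a value on both were higher on Adult-AL, by a median log2 of 1.10 or 2.15-fold (SD across features 0.35), and 74 of the 416 miRNAs, 25 of them among the 98 strong ones, had a ratio above that median. Of 10 small nuclear and nucleolar RNAs the median was -0.40, with the U6 feature RNU6-1_RNU6-2 at 15.99 on Young-AL and 14.2 on Adult-AL, RNU1 at 5.32 and 2.89, and SNORD2 at 3.43 and 6.77. A ratio relative to the spike-ins is therefore given beside the main results, and its part in them cannot be told apart from age with 1 array a side.

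**Figure D1:**
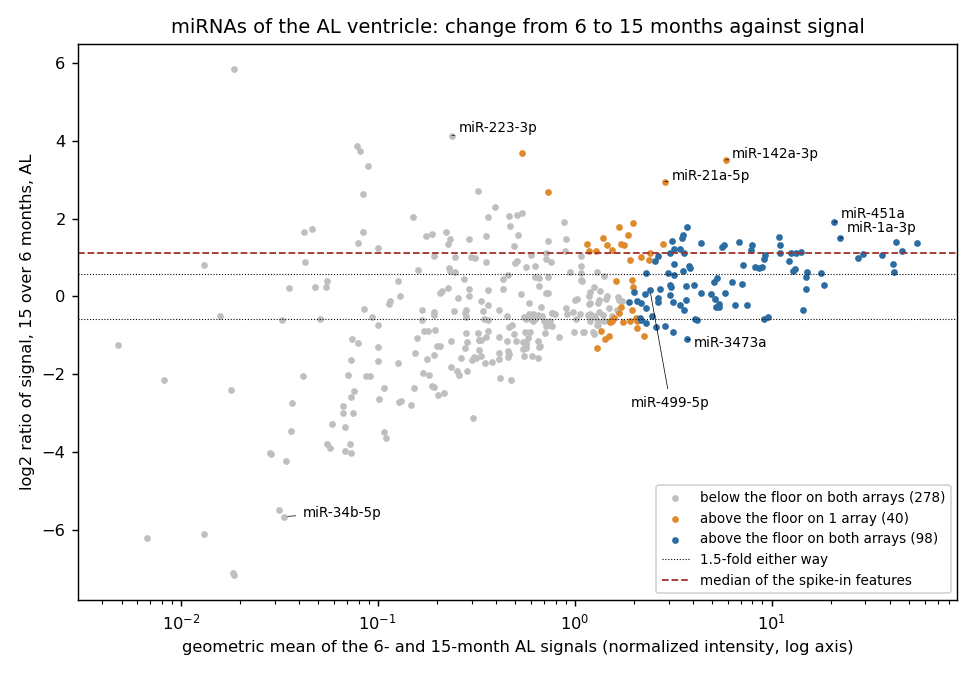
Log2 ratio of signal, Adult-AL over Young-AL, of 416 miRNAs (vertical axis) against the geometric mean of the 2 signals in normalised intensity (horizontal log axis). Each point is 1 miRNA, coloured by how many of the 2 arrays show it above the floor. The dotted lines mark 1.5-fold either way and the dashed line the spike-in median of 1.10. Faint miRNAs spread widely and lie mostly below 0, while 49 of the 98 strong ones lie above the upper dotted line.

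Several miRNAs of blood cells had high ratios. MiR-142a, which is made throughout the haematopoietic lineage, was higher on Adult-AL in both arms, and the red cell miRNAs miR-451a and miR-144-3p were higher as well. For miR-142a-3p the signal was 1.73 on Young-AL, 19.7 on Adult-AL and 5.60 on Old-AL, and 0.764, 5.22 and 4.42 on the CR arrays at 6, 15 and 22 months. Adult-AL is thus the highest of the 6 arrays and Young-AL the lowest of the AL arrays, with a ratio of 11.4-fold between them, and the floor was passed on Adult-AL but not on Young-AL. The other arm, miR-142a-5p, read 0.151 on Young-AL, 1.94 on Adult-AL and 0.752 on Old-AL, and 0.0731, 0.745 and 0.678 on CR, which is 12.9-fold from 6 to 15 months on AL, and it too passed the floor on Adult-AL alone. Arms of 1 hairpin come from the same transcript and are read by separate probes. MiR-223-3p, a miRNA of the myeloid lineage, stayed below the floor on all AL arrays, at 0.0568, 0.995 and 0.535, a 17.5-fold ratio from 6 to 15 months.

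Not every white cell miRNA followed in the deposited values. The list of white blood cell and inflammation miRNAs had 8 members compared, 3 higher, none lower and 5 within 1.5-fold, and its median log2 ratio of -0.28, close to the -0.27 of all miRNAs, turned positive under quantile scaling (1.56), loess (2.46) and the added viral background (0.07). The 3 higher as deposited, beside 30% of all 416 miRNAs, were those of miR-142a and miR-223. MiR-150-5p, abundant in lymphocytes, read 0.715 on Young-AL and 0.527 on Adult-AL, and miR-155-5p, induced on activation of immune cells, 0.0189 and 0.0133. MiR-146a-5p and miR-146b-5p, induced by NF-κB signalling, read 0.113 and 0.121 on Young-AL and 0.0782 and 0.111 on Adult-AL. All 4 lay below the floor on both arrays, so their ratios, within 1.5-fold as deposited, describe faint signals. By quantiles and loess the log2 ratios were 1.73 and 3.45 for miR-155-5p and 1.17 and 1.62 for miR-146a-5p. Those of miR-146b-5p were 1.38 and 1.81, while miR-150-5p stayed at -0.06 in both. In each of these scalings 6 of the 8 list members were called higher. Relative to the spike-ins 3 were higher and 5 lower.

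The red blood cell list had 3 features, all 3 higher, beside 30% of all 416 miRNAs. Its median of 1.78 stayed above 0 in every scaling, at 0.68 relative to the spike-ins. MiR-451a, which matures through Argonaute 2 without Dicer and is abundant in red cells, read 10.7 on Young-AL, 40.3 on Adult-AL and 28.8 on Old-AL, and 5.06, 22.6 and 17.1 on CR. It was the largest ratio of any miRNA above the floor on both AL arrays, at 3.76-fold. Its neighbour on chromosome 11, miR-144-3p, read 0.910, 3.13 and 5.59 on the AL arrays and 0.396, 4.28 and 3.60 on CR, so that here the 22-month array was the highest of the AL arrays. The feature for miR-486a-5p and miR-486b-5p, also of red cells, read 2.07 on Young-AL and 4.51 on Adult-AL, or 2.18-fold, which is the ratio of the spike-ins within 0.02 on the log2 scale. Mice were bled by cardiac puncture and hearts were washed before slicing. In pooled tissue, more cells of a type and more of a miRNA per cell cannot be told apart.

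MiR-21a-5p, a miRNA that rises in stressed myocardium and in cardiac fibroblasts, also passed the floor on Adult-AL alone among this pair of arrays. It read 1.04 on Young-AL, 7.98 on Adult-AL and 2.35 on Old-AL, and 0.652, 4.10 and 2.51 on CR. Both 15-month arrays are above all 4 others, and Adult-AL over Young-AL was 7.71-fold, or 1.84 on the log2 scale relative to the spike-ins.

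Of the other miRNAs of fibroblasts and smooth muscle most were higher by a ratio near that of the spike-ins. With miR-21a-5p the list had 14 members compared, 11 higher and 1 lower, beside 30% higher of all 416 miRNAs. Its median was 1.13 as deposited, 1.20 by quantiles, 1.35 by loess and 0.02 relative to the spike-ins. The feature for miR-145a-5p and miR-145b, of smooth muscle, read 2.07 on Young-AL and 6.17 on Adult-AL, and miR-143-3p, from the same cluster, 9.51 and 21.1. The miR-29 family represses collagen genes, and its 3 members with the shared seed AGCACCA moved within a log2 range of 0.26 of each other. MiR-29a-3p read 6.47 on Young-AL, 18.6 on Adult-AL and 10.1 on Old-AL, and 4.53, 11.7 and 8.80 on CR, a 2.88-fold ratio from 6 to 15 months on AL. MiR-29b-3p went from 3.62 to 9.10 and miR-29c-3p from 3.63 to 8.71, while the other arm miR-29c-5p read 0.0412 and 0.00782, far below the floor. MiR-199a-5p and miR-199b-5p, of mesenchymal cells, read 0.754 and 0.486 on Young-AL and 1.54 and 1.04 on Adult-AL, and miR-214-3p, from the same transcript as a miR-199a hairpin, 0.689 and 0.500.

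The endothelial miR-126a, carried in an intron of Egfl7, was higher in both arms. MiR-126a-3p read 25.3 on Young-AL, 52.9 on Adult-AL and 52.4 on Old-AL, and 15.0, 51.6 and 34.2 on CR. The 15- and 22-month AL arrays nearly coincide and both are about as far above Young-AL as the spike-ins are. MiR-126a-5p read 5.18 on Young-AL and 11.9 on Adult-AL. The median of the 2 arms was 1.13 as deposited, 0.38 by quantiles, 0.34 by loess and 0.03 relative to the spike-ins, and for miR-126a-3p the call was lost in all 3.

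The heart's own miRNAs had the clear signals that the tissue label calls for, with miR-1a-3p, miR-133a-3p, miR-133b-3p, miR-208a-3p and miR-499-5p above the floor on both AL arrays. Of the 11 members of the heart and striated muscle list, 6 were called higher and 2 lower, beside 30% higher of all 416 miRNAs. Above the floor on both arrays 5 of its 6 members were higher, beside 50% of the 98 strong miRNAs. The list's median log2 ratio was 0.63 as deposited but -0.48 relative to the spike-ins. MiR-1a-3p, which restrains growth of cardiac muscle cells, read 13.2 on Young-AL, 37.3 on Adult-AL and 20.4 on Old-AL, and 9.46, 28.1 and 17.9 on CR. Its 2.81-fold ratio was the largest of the list. MiR-133b-3p read 30.5, 68.7 and 44.4 on the AL arrays and 19.4, 39.0 and 25.1 on CR, and miR-133a-3p read 19.9, 42.2 and 30.7 on AL and 12.8, 28.8 and 17.8 on CR. All 3 were highest at 15 months under both diets, and relative to the spike-ins their Adult-AL over Young-AL ratios were 0.39, 0.07 and -0.02 on the log2 scale. By quantiles they were 0.60 for miR-1a-3p, 0.02 for miR-133b-3p and 0.04 for miR-133a-3p, so that miR-1a-3p alone of these stayed called.

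The miRNAs of the myosin genes had different ratios as deposited, but not after quantile or loess scaling. MiR-208a-3p, from an intron of Myh6, the adult cardiac myosin gene, read 19.4 on Young-AL, 38.6 on Adult-AL and 28.7 on Old-AL, and 10.4, 43.3 and 24.3 on CR. MiR-499-5p, from an intron of Myh7b, read 2.29 on Young-AL, 2.55 on Adult-AL and 7.06 on Old-AL, and 1.35, 7.23 and 6.39 on CR. So the 15-month AL array stayed at the level of the 6-month one for miR-499-5p, at 1.11-fold, while the 15-month CR array lay with the 22-month arrays. The log2 ratio of miR-208a-3p was 0.99 as deposited, -0.06 by quantiles, 0.02 by loess and -0.11 relative to the spike-ins, and that of miR-499-5p 0.15, 0.04, 0.07 and -0.95. The other arm, miR-499-3p, was also low on these AL arrays and on Young-CR, at faint signals of 0.121, 0.0524 and 0.566 on AL and 0.0659, 0.683 and 0.690 on CR. MiR-208b-3p, from Myh7, the slow myosin gene, had no value on either AL array at 6 and 15 months and read 0.603 on Old-AL. MiR-206-3p, the skeletal muscle member of the miR-1 family, was faint at 0.209 and 0.136.

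**Figure D2:**
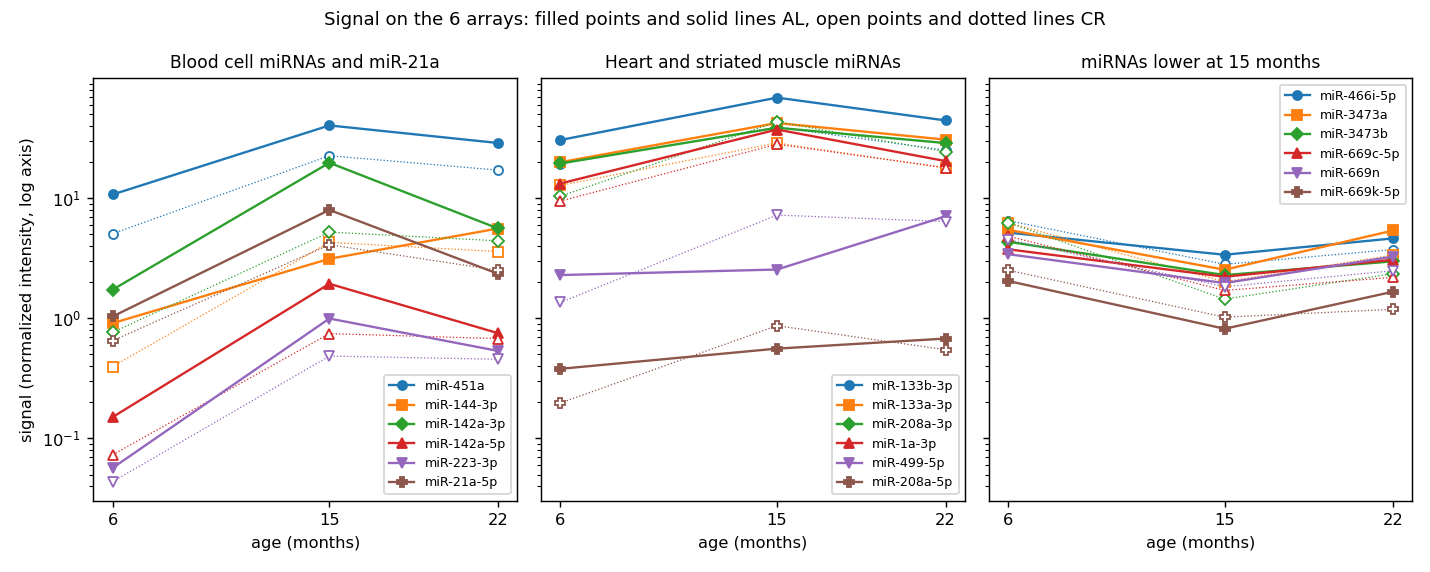
Signal in normalised intensity (log axis) on each of the 6 arrays against age in months, for 6 miRNAs of blood cells with miR-21a-5p (left), 6 of striated muscle (middle) and 6 that were lower at 15 months (right). Each point is 1 array of pooled ventricle, filled with solid lines for AL and open with dotted lines for CR, and there are no error bars because each group had 1 array. MiR-142a-3p stands at 19.7 on Adult-AL against 1.73 on Young-AL, miR-499-5p is level between 2.29 and 2.55, and the miRNAs on the right dip at 15 months.

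The let-7 family, which holds back growth genes in mature tissue, was among the families with ratios mostly above 1. Of 14 members compared 9 were higher and 2 lower, beside 30% higher of all 416 miRNAs. The median was 1.06 as deposited, 1.27 by quantiles, 1.31 by loess and -0.046 relative to the spike-ins. The 9 mature forms with the seed GAGGUAG had log2 ratios from 0.55 to 2.69, and 8 of the 9 were called higher. Let-7f-5p read 0.288 on Young-AL, 1.86 on Adult-AL and 1.39 on Old-AL, or 6.45-fold from 6 to 15 months, and let-7c-5p 2.01, 6.88 and 2.94, or 3.42-fold. Let-7d-5p read 1.03, 3.80 and 4.24. At the low end let-7b-5p read 2.65 on Young-AL and 3.89 on Adult-AL, just within 1.5-fold, and let-7e-5p 1.88 and 2.86, just outside it. The star forms let-7a-2-3p and let-7c-1-3p, from the other side of the hairpin, were the 2 lower members as deposited, at log2 ratios of -1.27 and -1.70 and below the floor. By loess their ratios were -0.03 and 0.13, and neither by quantiles nor by loess was a let-7 member called lower.

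The miR-17-92 cluster and its paralogs, known for driving proliferation, had 15 members compared, 10 higher and 4 lower, and a median of 1.54 that stayed positive in every scaling, at 0.44 relative to the spike-ins. None of the 15 was above the floor on either array. Of the 278 such miRNAs 20.1% were called higher, and of all 416 miRNAs 30%. The 6 members with the seed AAAGUGC were all called higher, with log2 ratios from 0.90 for miR-106b-5p to 2.71 for miR-20a-5p. MiR-20a-5p read 0.126 on Young-AL, 0.825 on Adult-AL and 0.554 on Old-AL, and 0.0953, 0.631 and 0.430 on CR. MiR-19b-3p came nearest to the floor, at 0.454 on Young-AL and 1.72 on Adult-AL. The 4 lower members were miR-17-3p, miR-106b-3p, miR-363-5p and miR-92a-2-5p, which are the opposite arms of cluster hairpins and read 0.609 or less on Young-AL.

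As deposited the miR-15, miR-30 and miR-23/24/27 lists had smaller medians than the let-7 and miR-17-92 lists. Above the floor on both arrays the order differed, with 1.37 for miR-15 (1 miRNA) and 1.12 for miR-30 (5). There miR-23/24/27 had 0.89 (4) and let-7 0.60 (3). Beside the counts that follow, 30% of all 416 miRNAs were called higher and 50% of the 98 strong ones. The miR-15 family, which limits division of heart muscle cells after birth, had 4 higher and 3 lower of 7, with a median of 0.77 as deposited and -0.33 relative to the spike-ins. Its strongest member, miR-16-5p, read 2.73 on Young-AL, 7.05 on Adult-AL and 9.09 on Old-AL. Of the miR-30 family, which represses connective tissue growth factor, 7 of 10 were higher and 1 lower, with a median of 0.99 as deposited and -0.11 relative to the spike-ins. Its 3 members with a matched sequence and the seed GUAAACA, miR-30a-5p, miR-30c-5p and miR-30e-5p, had log2 ratios of 1.33, 1.12 and 0.92, and miR-30d-5p read 4.21 and 11.2. Of the miR-23, miR-24 and miR-27 clusters 6 of 9 were higher and 1 lower, with a median of 0.75 that became -0.36 relative to the spike-ins. MiR-24-3p read 3.00 on Young-AL, 4.99 on Adult-AL and 18.9 on Old-AL, and 2.12, 15.1 and 13.2 on CR, so that, as for miR-499-5p, the 15-month CR array lay nearer to the 22-month arrays than the 15-month AL array did.

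MiR-378, from an intron of Ppargc1b, a regulator of oxidative metabolism, had 3 features higher of 4 and a median of 0.91 that became -0.20 relative to the spike-ins. By quantiles the median was 0.44 with 0 of the 4 called higher, and by loess 0.45 with 1. The feature for miR-378a-3p and the feature for miR-378a-3p, miR-378b and miR-378c name the same miRNA, so they are not separate members. MiR-378a-3p read 9.06 on Young-AL, 19.6 on Adult-AL and 10.9 on Old-AL. Of 12 miRNAs tied to cardiac stress 7 were higher and 2 lower, with a median of 0.80 as deposited and -0.30 relative to the spike-ins. These counts and those of miR-378 stand beside 30% higher of all 416 miRNAs and 50% of the 98 strong ones. MiR-22-3p, required for a full hypertrophic response in the mouse, read 26.4 on Young-AL, 69.2 on Adult-AL and 27.4 on Old-AL, and 17.2, 30.3 and 20.8 on CR. As deposited, Adult-AL was 2.61-fold Young-AL and more than 2-fold every other array. The log2 ratio of 1.39 became 0.31 by quantiles, 0.25 by loess and 0.28 relative to the spike-ins, so the call was lost in these. The other arm, miR-22-5p, had 0.706 on Young-AL and 0.751 on Adult-AL. MiR-212-3p, raised in hypertrophy models, was below the floor at 0.312 and 0.102. Of the features with the strongest signals, miR-5100 read 34.2 and 88.8, miR-3963 31.1 and 55.4, and miR-491-3p 33.5 and 52.0 on Young-AL and Adult-AL.

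**Figure D3:**
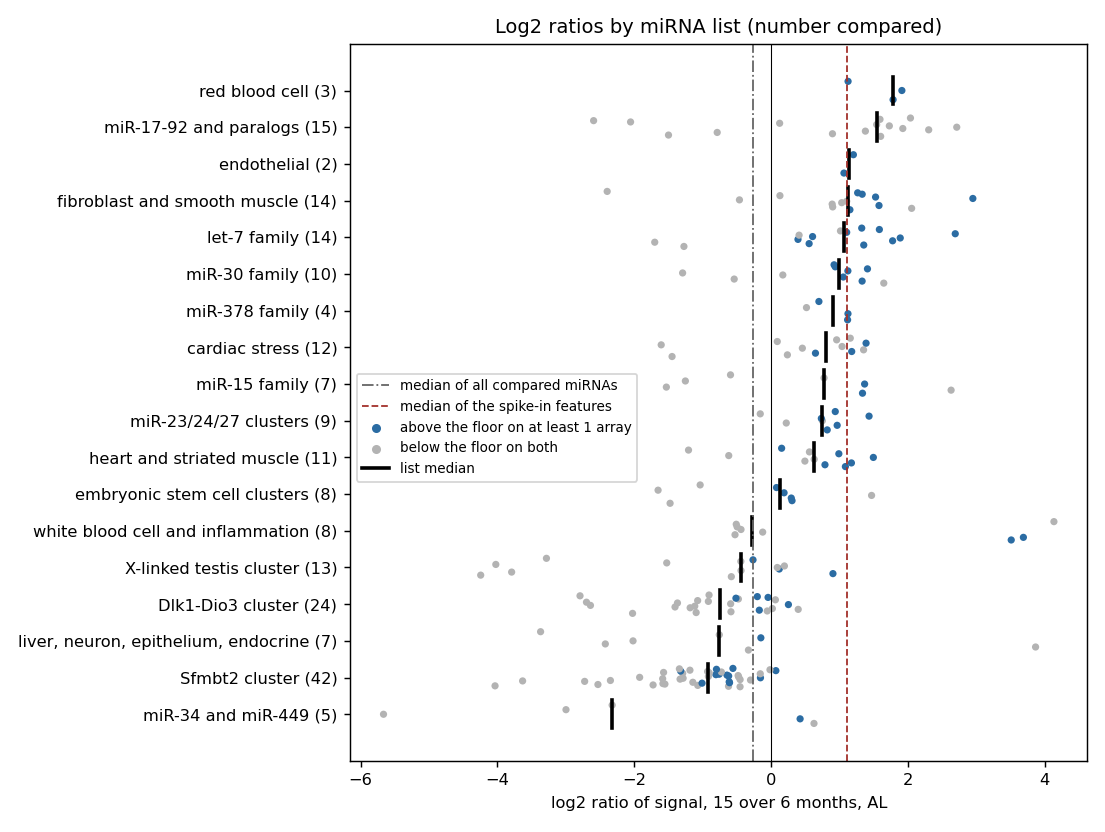
Log2 ratio of signal, Adult-AL over Young-AL (horizontal axis), of the miRNAs of 18 lists (rows, with the number compared), ordered by list median. Points are miRNAs, blue where 1 or both arrays exceed the floor and grey where neither does, and the black bar is the list median. The dash-dotted line is the median of all 416 miRNAs, -0.27, and the dashed line the spike-in median, 1.10. Red blood cell miRNAs lie at or above the dashed line, and no member of the Sfmbt2 and Dlk1-Dio3 lists was 1.5-fold higher as deposited.

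The miRNAs that were lower included large gene clusters. The miR-297, miR-466, miR-467 and miR-669 families, many of which come from an intron of Sfmbt2 in rodents, had 42 features compared, 32 of them lower and none higher. Of all 416 miRNAs 37% were lower, and of those below the floor on both arrays 48.6%. The median of these features was -0.92 and stayed between -0.61 and -2.03 in the scalings and floors tried. MiR-669c-5p read 3.75 on Young-AL, 2.22 on Adult-AL and 3.07 on Old-AL, and 4.83, 1.71 and 2.19 on CR. MiR-669n read 3.42, 1.96 and 3.26 on AL and 4.52, 1.83 and 2.49 on CR, and miR-466i-5p 5.17, 3.38 and 4.63 on AL and 6.51, 2.81 and 3.73 on CR. In these 3 the 15-month array was the lowest of its diet. Above the floor on at least 1 array were 12 of the 42, with a median of -0.63. Many of these miRNAs carry GU or AC repeats, so their features are not independent of each other.

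Outside these families miR-3473a and miR-3473b gave the lowest ratios above the floor on both arrays. MiR-3473a read 5.45 on Young-AL, 2.54 on Adult-AL and 5.38 on Old-AL, and 6.24, 2.02 and 3.36 on CR, or 2.15-fold lower at 15 months on AL. MiR-3473b, with its shared run of 16 bases, read 4.34 on Young-AL, 2.29 on Adult-AL and 2.98 on Old-AL. MiR-706 at 11.2 and 7.48 and miR-1897-5p at 11.5 and 8.03 lay just within the 1.5-fold limit.

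Of the imprinted Dlk1-Dio3 miRNAs on chromosome 12, expressed from the maternal chromosome, 24 of 101 features had a value on both arrays, 14 were lower and none higher, with a median of -0.75, beside 37% lower of all 416 miRNAs and 48.6% of the faint ones. By quantiles 9 were lower and 1 higher (median -0.36), and by loess 7 and 1 (median -0.25). Of these 24, 5 were above the floor, with a median of -0.17 and none called. MiR-667-3p read 2.70 on Young-AL and 2.62 on Adult-AL, and miR-673-3p 5.80 and 5.04. The 14 calls were thus all of faint members, among which miR-494-5p read 0.335 and 0.0516 and miR-376c-3p 0.253 and 0.0407. By RefSeq positions 15 of the compared miRNAs lay in a run on chromosome 12 with gaps of at most 10000 bases, 11 of them lower.

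The miR-34 and miR-449 list had 5 members compared, all of them miR-34, so no miR-449 feature enters here. MiR-34 is induced by p53, and miR-34a is studied in the ageing heart. Of the 5 members 1 was higher and 3 lower. Their median was -2.32 as deposited, -1.30 by quantiles, -0.63 by loess, -0.75 with the viral background added and -3.43 relative to the spike-ins. MiR-34a-5p read 1.04 on Young-AL, 1.61 on Adult-AL and 1.99 on Old-AL, and 0.813, 1.98 and 1.75 on CR. That is 1.54-fold higher on AL at 15 months, with -0.48 on the log2 scale relative to the spike-ins. MiR-34b-3p, the only member above the floor on an array, read 1.68 and 2.25, and with it alone the list's value turned to 0.42. MiR-34b-5p, from the same hairpin, read 0.238 on Young-AL and 0.00469 on Adult-AL, against 0.225 on Old-AL.

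Markers of liver, neurons, epithelium and endocrine pancreas were faint or without a value on the AL pair. MiR-122-5p of the liver and miR-141-3p of epithelium had no value on Young-AL or Adult-AL, nor did miR-375-3p of endocrine pancreas. MiR-124-3p and miR-9-5p of neurons and miR-200c-3p and miR-205-5p of epithelium had values on Young-AL alone, the highest being 0.0774 for miR-124-3p. In the wider list of liver, neuron, epithelium and endocrine miRNAs 7 of 45 features were compared, 1 higher and 4 lower, with a median of -0.76 as deposited. By loess it was -0.14, with 2 higher and 2 lower, and the 1 member above the floor had -0.15. The higher one, miR-128-3p, which is enriched in brain, read 0.0206 and 0.299. Of the miR-290 and miR-302 clusters of embryonic stem cells 8 were compared, 1 higher and 3 lower, and the median of 0.13 turned to -0.16 under quantile scaling, -0.12 under loess and -0.97 relative to the spike-ins. Above the floor on both arrays were 4 of these 8. A feature of that list with a strong signal, miR-290a-5p, read 16.7 on Young-AL, 20.6 on Adult-AL and 3.79 on Old-AL. Whether signals of such features come from miRNAs made in ventricle was not tested. The testis cluster of the X chromosome had 1 higher and 5 lower of 13, a share close to the 37% lower of all 416, and its median of -0.44 turned to 0.12 with its 3 members above the floor.

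Both arms were compared for 58 hairpins. The log2 ratios of the arms had the same sign in 40, with both called higher in 9 and both lower in 10. When the arm with the higher mean signal was set against the other, its ratio was the higher in 41 of 58. The stronger arms had 24 higher and 12 lower with a median of 0.17, and the weaker arms 14 higher and 29 lower with a median of -0.59. Signals of different probes are not on a common scale, so stronger here says only which probe was brighter, and the strength of the signal itself moved with the ratio as given above. MiR-23a is an example, with 5.39 and 9.51 for the 3p arm on Young-AL and Adult-AL and 0.188 and 0.0235 for the 5p arm. MiR-142a is the other kind, with log2 ratios of 3.51 and 3.69 for its arms.

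**Figure D4:**
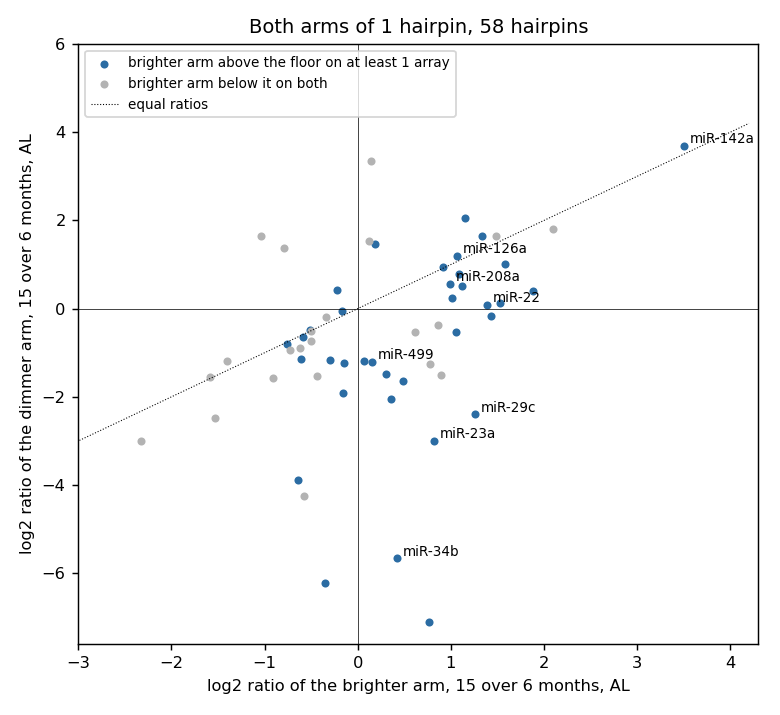
Log2 ratio of signal, Adult-AL over Young-AL, of the weaker arm (vertical axis) against that of the stronger arm (horizontal axis) of 58 hairpins, each point 1 hairpin. Blue points have a stronger arm that exceeds the floor on 1 or both arrays, and the dotted line marks equal ratios. In 41 of 58 hairpins the point lies below the line, and miR-142a lies close to it at 3.51 and 3.69.

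The counts depended on how the arrays were scaled. When the pair was rescaled by quantiles, by loess, by array medians or by spike-ins, or had the viral background added, the median log2 ratio moved by 0.22, 0.29, 0.10, -1.10 and 0.14, and the miRNAs called higher and lower were 132 and 114, 143 and 97, 131 and 132, 24 and 289, and 109 and 97. The share of calls that were higher was 44.8% as deposited, 53.7% by quantiles, 59.6% by loess, 49.8% by array medians, 7.67% by spike-ins and 52.9% with the background added. Among the 98 strong miRNAs the 49 higher and 7 lower became 21 and 19 by quantiles, 21 and 17 by loess and 2 and 48 by spike-ins. On the same side of 1.5-fold in all of these were 23 higher and 77 lower miRNAs. Of the 23 higher, 8 passed the floor on at least 1 array, namely miR-142a-3p, miR-142a-5p, miR-21a-5p, let-7f-5p, miR-451a, let-7d-5p, miR-144-3p and let-7c-5p. Only 2 of them, miR-451a and let-7c-5p, passed it on Young-AL as well as Adult-AL. The others named passed on Adult-AL alone, where they were high, so for them the floor is no separate check on the rise. Of the 77 lower, 10 passed it on at least 1 array, namely miR-669k-5p, miR-3473a, miR-1895, miR-3082-5p, miR-466f, miR-3473b, miR-1958, miR-669c-3p, miR-669n and miR-669c-5p. Among these, 4 passed on each array, namely miR-3473a, miR-3473b, miR-669n and miR-669c-5p, and the rest on Young-AL alone. Over the scalings the ratio of miR-142a-3p ran from 5.29-fold to 12.2-fold, that of miR-21a-5p from 3.59-fold to 8.26-fold and that of miR-451a from 1.75-fold to 4.03-fold.

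The same ages under CR share no array with the AL pair, and their ratios were set beside it. In the CR pair 44.2% of the 416 miRNAs were higher and 38.2% lower, and the spike-ins were higher by a median log2 of 1.22, close to the 1.10 of the AL pair. Of the 125 miRNAs higher on AL, 117 were also higher on CR and 4 lower, and of the 154 lower on AL, 95 were also lower on CR and 23 higher. Among the 98 strong miRNAs 42 of 49 higher were also higher on CR and 3 were lower, and all 7 lower were also lower. Of all 98, however, 49 were higher on CR and 36 lower, beside 49 higher and 7 lower on AL. Many strong miRNAs that were lower on CR were thus not called lower on AL. The log2 ratios of the pairs correlated at r = 0.55 over 416 miRNAs (Spearman 0.63) and r = 0.79 over the 98 (Spearman 0.79), as a description over probes that are shared and with a spike-in shift of the same sign on both sides. The 3 strong miRNAs that were called on opposite sides as deposited were let-7e-5p, miR-103-3p and miR-744-5p. None of them stayed called higher on AL by quantiles, loess or spike-ins, with log2 ratios of 0.51, 0.54 and -0.50 for let-7e-5p, -0.04, -0.13 and -0.48 for miR-103-3p, and -0.22, -0.21 and -0.50 for miR-744-5p. The CR pair was not rescaled, so how the diets differ after rescaling was not tested. MiR-103-3p, which acts in insulin signalling, read 12.2 and 18.7 on AL and 9.63 and 6.36 on CR at 6 and 15 months, and miR-107-3p, which differs from it at 1 position, 12.7 and 17.8 on AL and 9.66 and 6.25 on CR.

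Across the AL ages, as deposited, 50 of the 98 strong miRNAs were highest on the 15-month array and 11 lowest, 19 stood in rising and 18 in falling order from 6 to 22 months. The 98 were picked by the floor on Young-AL and Adult-AL and not on Old-AL, so these counts cannot show a peak at 15 months. The 49 of them called higher at 15 months became 21 by quantiles, 21 by loess and 2 by spike-ins, and the order of the 3 ages was not rescaled. Over Young-AL, miR-142a-3p had a log2 ratio of 1.69 at 22 months and 3.51 at 15 months. MiR-22-3p read 69.2 at 15 months and 27.4 at 22 months as deposited. Its call at 15 months was lost by quantiles, loess and spike-ins. The ratios between the 3 AL ages share arrays and are given as levels only. The spike-in median was 1.07 for 22 over 6 months and -0.026 for 22 over 15 months, so of the 3 AL arrays the 6-month one stood apart on that measure.

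**Figure D5:**
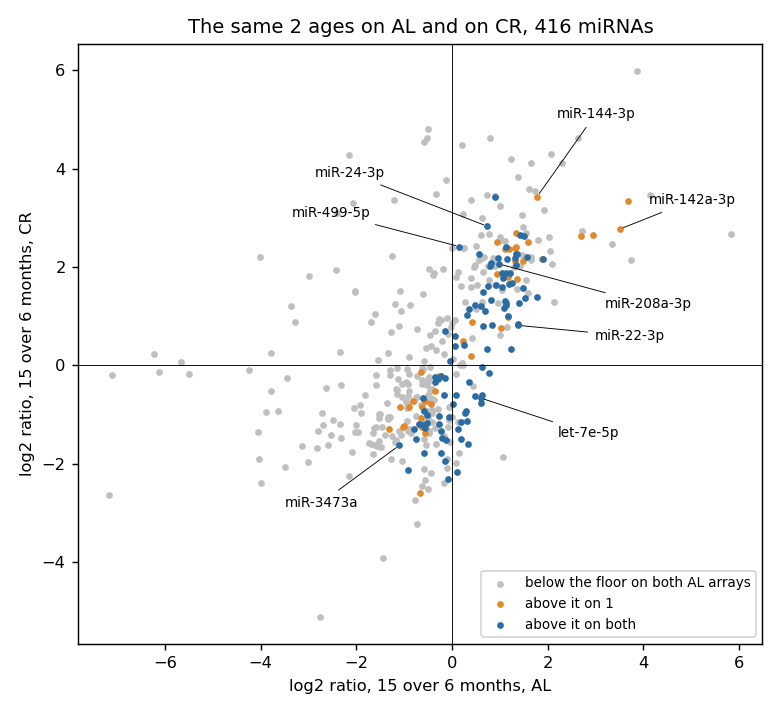
Log2 ratio of signal from 6 to 15 months on CR (vertical axis) against that on AL (horizontal axis) for the 416 miRNAs, each point 1 miRNA, coloured by how many of the 2 AL arrays show it above the floor. No array is shared between the axes. Of the 49 strong miRNAs that were higher on AL 42 were also higher on CR, and of all 98 strong ones 49 were higher and 36 lower on CR. As deposited, let-7e-5p lies at 0.60 on AL and -0.67 on CR and miR-499-5p at 0.15 and 2.42.

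A value on Young-AL alone was found for 170 miRNAs and on Adult-AL alone for 5, and 523 had none on either, so that fewer features gave a value on Adult-AL (421) than on Young-AL (586). None of these was above the floor. The strongest on Young-AL alone were miR-301b-5p at 0.510, miR-216a-3p at 0.353, miR-200b-3p at 0.299, miR-491-5p at 0.282 and miR-3062-3p at 0.270. On Adult-AL alone the 5 were miR-28a-5p at 0.106, miR-218-5p, miR-301a-3p, miR-5627-5p and miR-873a-3p. A blank at this strength says only that no value was given. Across miRNAs, which share the same 2 arrays, GC content and the log2 ratio correlated at r = -0.18 over the 331 miRNAs with a sequence and at -0.27 over the 75 of them above the floor on both arrays, where the median GC content was 45.5% in 36 higher miRNAs and 50% in the 39 others.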

How the data were processed

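Total RNA of pooled ventricle was labelled and read on miRCURY LNA arrays, and the images were extracted in GenePix Pro 6.0. The authors deposited a normalised intensity for each feature on a linear scale, blank where no value was given; how normalisation and background were done was not stated in the sources used here. Rows of the same feature were averaged. Signals were compared as the ratio of Adult-AL over Young-AL, called at 1.5-fold, with no pseudocount and no test, since each group was 1 array. Named miRNAs were the 15 of highest mean log2 signal, the 10 largest ratios each way above the floor (95th percentile of viral features), the members of 18 lists, and the 5 strongest with a value on 1 array alone; other miRNAs named were chosen after their values were seen, such as the 2 extreme ratios. The members and lists were chosen with earlier results of these data known. Alternatives were quantile and cyclic loess scaling (limma 3.58.1 in R 4.3.3, 3 iterations), array medians, spike-ins, an added viral background, floors, miRNAs on all 6 arrays, a 2-fold limit and the series' own value table. The scripts (Python 3.11.15, pandas 2.3.3) were tested on simulated data. With 1 array a group, the precision of a ratio was not measured. The data of the other assays were not analysed here.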

Additional observations from a re-analysis of the deposited data

Results flagged for a closer look

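Several ratios of 15 over 6 months pointed one way on AL and the other way on CR, and with 1 array a group none of these differences was tested. The median log2 ratio of the miR-34 and miR-449 list was -2.32 on AL and 0.88 on CR (5 miRNAs, all of them miR-34). That of the liver, neuron, epithelium and endocrine list was -0.76 on AL and 1.20 on CR (7 miRNAs). The AL medians moved to -0.63 and -0.14 by loess, and most members of both lists were below the floor. Among miRNAs above the floor on both AL arrays, let-7e-5p had log2 ratios of 0.60 on AL and -0.67 on CR, miR-103-3p 0.62 and -0.60, and miR-744-5p 0.60 and -0.76, all as deposited. The AL pair alone was rescaled. By quantiles, loess and spike-ins the AL ratios were -0.04, -0.13 and -0.48 for miR-103-3p and -0.22, -0.21 and -0.50 for miR-744-5p. For let-7e-5p they were 0.51, 0.54 and -0.50. The CR ratios stayed as deposited, though that pair had a spike-in shift of 1.22 on the log2 scale. Whether the diets differ after rescaling both pairs was not tested. The array also holds features without a name in the deposited table, and 156 of them were above the floor on both AL arrays.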

How the results depend on the processing

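The deposited values gave 125 miRNAs higher and 154 lower. Those lower became 97 under loess and 97 with the viral background added. Scaled to the spike-ins, 24 were higher and 289 lower. Counting miRNAs past the floor on 1 or both arrays gave 69 and 19 of 138, and past it on both 49 and 7 of 98. The balance turned with the floor, from 37% lower of all miRNAs to 7.14% of the 98. Quantile scaling, array medians, a 2-fold limit, miRNAs on all 6 arrays and the series' value table each left both counts within 1.5 times. Relative to the spike-ins the list medians turned to -0.48 for heart and striated muscle, -0.046 for let-7, -0.33 for miR-15, -0.11 for miR-30, -0.36 for miR-23/24/27, -0.20 for miR-378 and -0.30 for cardiac stress, as the shift of 1.10 built into that scaling exceeds them. The miR-34 and miR-449 median turned to 0.42 when a member had to pass the floor on an array, which left 1 miRNA. By quantiles and loess the ratio of miR-22-3p was 0.31 and 0.25 and that of miR-208a-3p -0.06 and 0.02. No paired analysis was possible because each group has 1 array of pooled tissue. The faint signals limit 278 of the 416 ratios, which lie below the floor on both arrays.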
